A study of Mus musculus with 15 samples.

Results

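The genes described here are 50 genes of mitosis: the kinases and cyclins that start it, the spindle checkpoint, the chromosomal passengers, the kinetochore, condensin, the spindle, cytokinesis and a pair of transcription factors. They were chosen by name, with earlier results of these data known, so shares over all genes serve as background and not as a test. Of the 50, 49 were measured among 18193 genes on the array. Each was read through its brightest probe set, the one with the highest mean over 15 arrays. Ccnb1 was not analysed here. The series profiled lung tumours that arise in engineered mice, as a model of small cell lung cancer (an aggressive cancer of neuroendocrine type), on Affymetrix Mouse Genome arrays, with the aim of judging how far they resemble human tumours of that kind. The first group was 3 tumours in which Rb, p53 and p130 were each recombined on both alleles (Δ/Δ, called Rb/p53/p130 tumours), taken 6 months after mice inhaled an adenovirus that carries Cre recombinase. The second was 10 tumours in which Rb and p53 were Δ/Δ (Rb/p53 tumours), made in the same way and taken after 8 to 12 months. The third was 2 tumour-free lungs of adult wild-type mice. Genotype and time after infection therefore cannot be told apart between the tumour groups. The virus recombines only the cells it enters, and the dissected tumours also hold host cells. In bulk tissue, fewer cells of a type and less RNA per cell cannot be told apart. Nothing in the labels says whether each array had a mouse of its own, so that p-values speak only of the spread among these arrays, which may be partly technical.

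In mitosis the duplicated chromosomes are condensed, attached through their kinetochores to spindle microtubules and pulled apart. Cyclin B bound to Cdk1 starts the process, and the spindle checkpoint holds it until every kinetochore is attached. The anaphase-promoting complex (APC/C) with Cdc20 then marks securin and cyclin B for destruction, which frees separase to cut cohesin. Most of these genes are transcribed late in the cell cycle. In mouse and human cells that rest, p130 is part of the DREAM complex, which silences them through a short promoter element called CHR, and in dividing cells the factors Mybl2 and Foxm1 join the same core complex to switch them on. Rb acts mainly on E2F factors and genes of the G1/S transition.

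Array medians ran from 6.58 to 6.68 on the log2 scale of RMA (a method that corrects, normalises and summarises array signals). The 7 neuroendocrine markers measured fitted the tumour label: their mean log2 level was 10.81 to 11.26 in Rb/p53/p130 tumours, 10.68 to 11.65 in Rb/p53 tumours and 5.19 to 5.45 in normal lungs, and 7 of 7 were higher in both tumour groups. The 5 alveolar type 2 markers averaged 10.62 to 11.24 in Rb/p53/p130 tumours, 9.09 to 12.5 in Rb/p53 tumours and 13.4 to 13.7 in normal lungs. The deleted gene Rb1 read 11.76 ± 0.12 in the 3 Rb/p53/p130 tumours, 11.50 ± 0.41 in the 10 Rb/p53 tumours and 10.20 ± 0.20 in the 2 normal lungs (errors are SD). Rbl2, which encodes p130, read 8.61 ± 0.21 in Rb/p53/p130 tumours, 8.66 ± 0.42 in Rb/p53 tumours and 9.57 ± 0.01 in normal lungs. Since it is not known here whether these probe sets lie in the recombined exons, neither gene is a check of the labels. An RNA quality measure moved with the tumour comparison: the 3' minus 5' difference of the Gapdh control probe sets was -0.03 to 0.08 in Rb/p53/p130 tumours, -0.07 to 0.36 in Rb/p53 tumours and 0.72 to 0.88 in normal lungs.

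The mitotic genes were far higher in both kinds of tumour than in normal lung. Of the 49 measured, 48 rose and 0 fell in Rb/p53 tumours (limma, adjusted p under 0.05), where 18.3% of all genes rose. The median log2 difference was 4.21, against -0.03 over all genes. In 48 of the 49, every one of the 10 tumours lay above both lungs, as in 18.2% of all genes. In Rb/p53/p130 tumours 48 rose and 1 fell, where 15.3% of all genes rose and 15.6% fell, with a median of 4.30 against -0.02. All 3 tumours lay above both lungs in 48 genes, as in 32.8% of all genes. These comparisons share the 2 lungs. Of the 100 genes that rose most in Rb/p53 tumours, 18 were among the 49, and of the 500 that rose most, 41 were. The one member that did not rise in either genotype was Pttg1, which encodes securin. In 3 genes (Ttk, Cenpi and Ncapg) the lung level did not exceed 5.05, the highest 25th percentile of any array, which need not be above background, and their folds are given as lower bounds. With these 3 set to their bound the medians were 4.23 in Rb/p53/p130 tumours and 4.12 in Rb/p53 tumours. With the Gapdh difference as a covariate, 34 members were still called in Rb/p53/p130 tumours and 37 in Rb/p53 tumours. The Gapdh difference did not overlap between tumours and lungs, and errors widened with the covariate. In Rb/p53 tumours Espl1 went from 2.69 ± 0.30 to 2.58 ± 0.75, and Cenpe from 4.21 ± 0.35 to 2.72 ± 0.74. Of the member calls lost there, the change became smaller in all but Bub3 (1.04 ± 0.18 to 1.24 ± 0.44). The calls lost are named with each gene group, and the part of RNA quality in them was not tested.

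**Figure D1:**
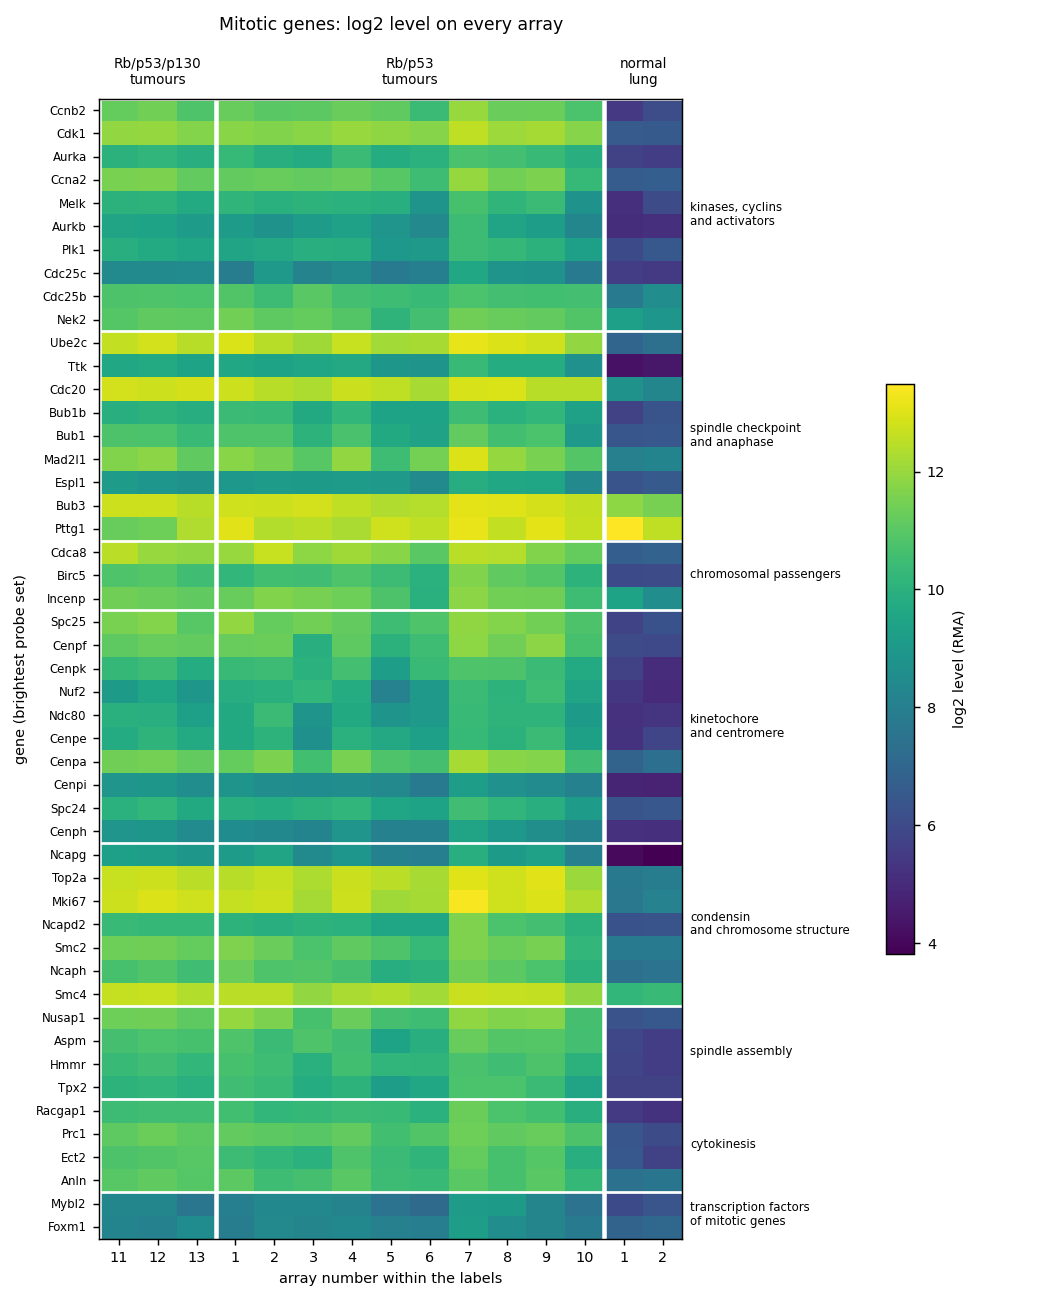
Log2 RMA level of the 49 mitotic genes (rows, by function) on every array (columns: 3 Rb/p53/p130 tumours, 10 Rb/p53 tumours, 2 normal lungs), with the colour scale at the right. The lung columns are darker than all tumour columns in every row but that of Pttg1, and tumour 7 is the brightest Rb/p53 tumour in 37 rows.

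Promoters of these genes are shown because the genes moved together and because p130, deleted in 1 of the groups, works at promoters of this kind. RefSeq promoters of the assembly GRCm38.p6 were given for 41 of the 49 genes (46 promoters), each 250 bases before to 50 after a transcription start. The letters searched, on both strands, were TTTGAA for CHR, with its variant TTCGAA, then CCAAT for the box bound by NF-Y, and TTTCCCGC, TTTCGCGC, TTTGCCGC and TTTGGCGC for E2F. None of these strings contains another, though neighbours may share end bases. CHR letters stood in the windows of 28 of 41 genes (68.3%), against 17.5% of the 14452 genes on the array that had a promoter and 21.7% of all 27025 genes with one. Within 50 bases either side of the start they stood in 26 of 41 (63.4%), against 4.62% of genes on the array. CCAAT stood in 31 of 41 (75.6%, against 42.0%), and both together in 26 of 41 (63.4%, against 7.05%). E2F letters stood in 3 of 41 (7.32%, against 3.81%). By function, CHR letters stood in 4 of 4 cytokinesis genes, 5 of 6 condensin and chromosome genes, 7 of 9 checkpoint and anaphase genes, 5 of 7 kinases and cyclins and 4 of 9 kinetochore genes. A match is a description of the letters and not a site or a cause, and no match says only that these letters are absent from that window.

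The last 150 bases before the start are printed for 6 genes, 5′ to 3′ on the gene's strand, with CHR and CCAAT letters of either strand in capitals (a reverse-strand CHR reads TTCAAA, a reverse-strand CCAAT box ATTGG). Cdc20, Ube2c and Top2a rose strongly and hold both kinds. Bub3 holds both kinds and rose little. Cenpk rose strongly and has no CHR letters in any of its 3 windows, of which the second is shown. Pttg1 did not rise and has neither. Among genes not printed, Birc5, Mad2l1, Melk, Mybl2, Ncaph, Nuf2 and Nusap1 also have neither, and all of them rose. The windows are Cdc20 at chr4:118437344-118437493 (minus strand), Ube2c at chr2:164769779-164769928 (plus strand), Top2a at chr11:99024190-99024339 (minus strand), Bub3 at chr7:131560220-131560369 (plus strand), Cenpk at chr13:104228816-104228965 (plus strand) and Pttg1 at chr11:43425982-43426131 (minus strand).
Cdc20: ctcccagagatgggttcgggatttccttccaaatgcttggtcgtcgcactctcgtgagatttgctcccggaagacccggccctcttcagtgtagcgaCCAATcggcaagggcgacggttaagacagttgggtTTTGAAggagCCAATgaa
Ube2c: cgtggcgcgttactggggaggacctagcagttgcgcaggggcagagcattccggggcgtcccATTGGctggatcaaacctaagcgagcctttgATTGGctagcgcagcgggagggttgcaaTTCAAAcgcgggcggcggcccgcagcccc
Top2a: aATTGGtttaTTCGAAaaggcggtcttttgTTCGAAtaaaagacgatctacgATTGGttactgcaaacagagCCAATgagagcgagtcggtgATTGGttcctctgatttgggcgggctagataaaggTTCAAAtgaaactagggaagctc
Bub3: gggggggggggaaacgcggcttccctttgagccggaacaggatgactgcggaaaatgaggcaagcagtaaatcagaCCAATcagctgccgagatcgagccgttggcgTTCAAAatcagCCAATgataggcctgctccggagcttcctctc
Cenpk: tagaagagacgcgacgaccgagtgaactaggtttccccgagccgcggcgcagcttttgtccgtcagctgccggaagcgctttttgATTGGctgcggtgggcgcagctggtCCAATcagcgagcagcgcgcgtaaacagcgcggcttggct
Pttg1: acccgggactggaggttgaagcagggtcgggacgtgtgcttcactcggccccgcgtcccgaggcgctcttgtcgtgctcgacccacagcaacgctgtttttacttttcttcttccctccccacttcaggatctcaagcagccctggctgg
Counted from -1 as the last base before the start, the CHR letters lie at -18 to -13 in Cdc20, at -29 to -24 in Ube2c, at -43 to -38 in Bub3, and at -140 to -135, -120 to -115 and -23 to -18 in Top2a. Top2a thus holds the most, and the Cdc20 and Ube2c windows each hold a single one.

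Kinases, cyclins and their activators rose in 10 of 10 genes measured, with median log2 differences of 4.29 in Rb/p53/p130 tumours and 4.14 in Rb/p53 tumours. Cdk1, the kinase that drives mitosis, read 11.93, 11.97 and 11.71 in the Rb/p53/p130 tumours, 11.67, 11.84 and 12.58 as lowest, median and highest of the Rb/p53 tumours, and 6.59 and 6.57 in the lungs. No tumour came near a lung value. Its change was 5.29 ± 0.22 (SE) in Rb/p53/p130 tumours and 5.36 ± 0.19 in Rb/p53 tumours (limma adjusted p = 1.56e-09 and 1.69e-10). Ccnb2, a B-type cyclin that activates Cdk1, read 11.22, 11.42 and 10.84 in Rb/p53/p130 tumours, 10.41, 11.19 and 12.00 in Rb/p53 tumours, and 5.44 and 6.10 in lungs. It was the member that rose most in Rb/p53 tumours, 41.8-fold, and rose 41.9-fold in Rb/p53/p130 tumours. Ccna2, the cyclin of S phase and early mitosis, read 11.54, 11.59 and 11.18 in Rb/p53/p130 tumours, 10.31, 11.22 and 11.95 in Rb/p53 tumours, and 6.62 and 6.70 in lungs. The 3 Rb/p53/p130 tumours lay within the range of the Rb/p53 tumours for all 3 of these genes.

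The Aurora and Polo kinases act later, on centrosomes, chromosomes and the spindle. Aurka, which matures centrosomes, read 10.02, 10.19 and 9.90 in Rb/p53/p130 tumours, 9.76, 10.14 and 10.70 in Rb/p53 tumours, and 5.74 and 5.58 in lungs. Aurkb, the kinase of the chromosomal passenger complex, read 9.46, 9.42 and 9.16 in Rb/p53/p130 tumours, 8.27, 9.13 and 10.44 in Rb/p53 tumours, and 5.07 and 5.15 in lungs. Both stood clear of lung, but Aurkb ranged over more than 2 log2 units among the Rb/p53 tumours. Plk1, the Polo-like kinase, changed by 3.45 ± 0.38 in Rb/p53/p130 tumours and 3.45 ± 0.32 in Rb/p53 tumours (limma adjusted p = 9.60e-06 and 1.29e-06). Melk, a kinase of dividing and progenitor cells, changed by 4.35 ± 0.49 in Rb/p53/p130 tumours and 4.29 ± 0.41 in Rb/p53 tumours. The smallest rises of the group were those of Cdc25b and Nek2. Cdc25b, a phosphatase that activates Cdk1, read 10.79, 10.83 and 10.77 in Rb/p53/p130 tumours, 10.35, 10.60 and 11.01 in Rb/p53 tumours, and 7.84 and 8.58 in lungs. Nek2, a centrosome kinase, read 10.94, 11.15 and 11.10 in Rb/p53/p130 tumours, 10.11, 11.13 and 11.42 in Rb/p53 tumours, and 9.29 and 8.91 in lungs. Neither overlapped lung. One dim Nek2 probe set, at 4.66 in Rb/p53 tumours and 5.18 in lung, went the other way (-0.52 ± 0.11, limma adjusted p = 0.00172). Cdc25c, the other Cdk1 phosphatase of the list, changed by 2.93 ± 0.45 in Rb/p53/p130 and 2.91 ± 0.38 in Rb/p53 tumours, and its calls were lost with the Gapdh covariate (limma adjusted p = 0.212 and 0.159).

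**Figure D2:**
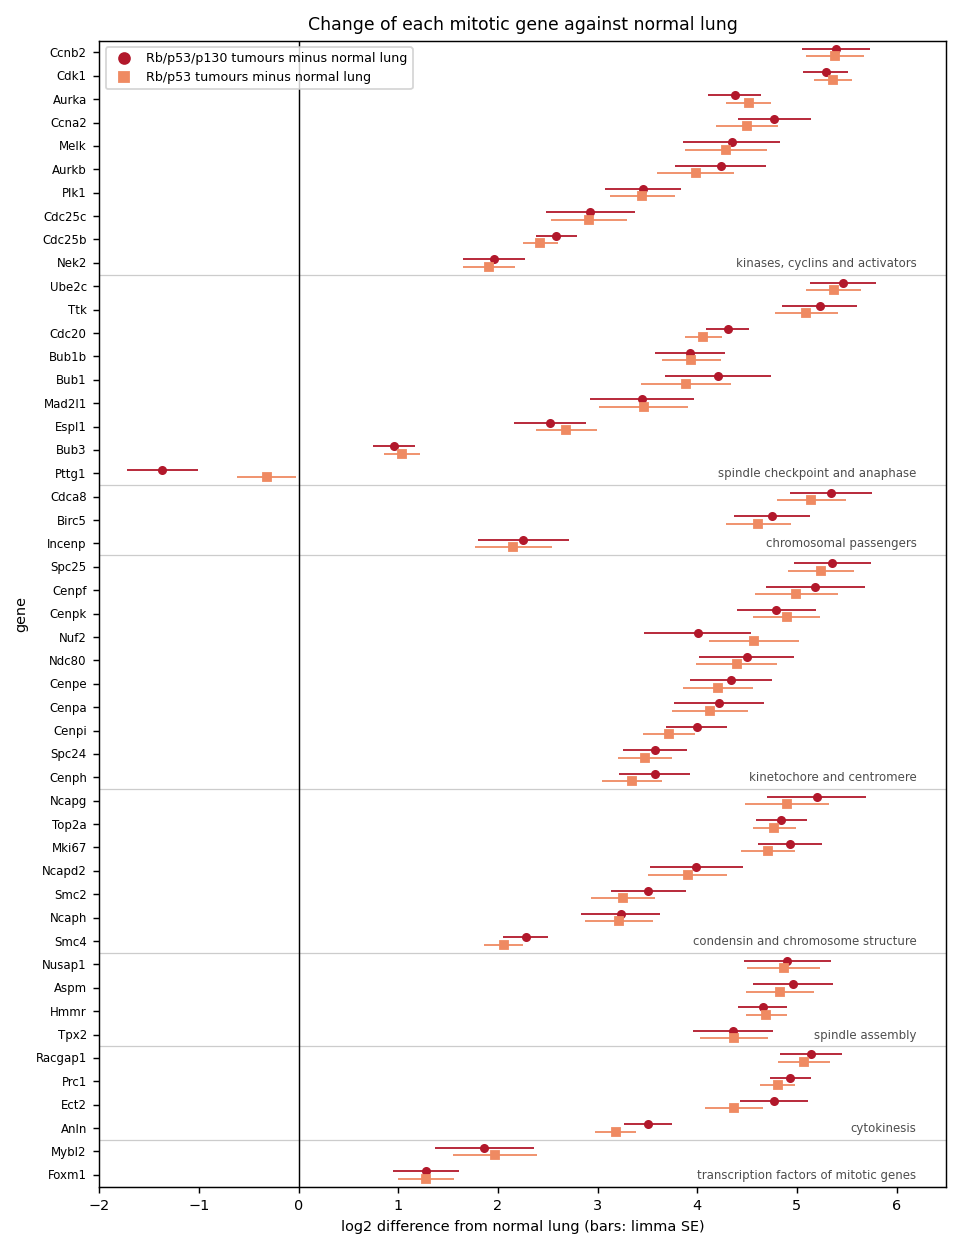
Log2 difference from normal lung of each of the 49 mitotic genes, by function, for Rb/p53/p130 tumours (circles) and Rb/p53 tumours (squares), with bars for the limma SE. Both genotypes sit close to each other in nearly every row, at a median of 4.30 and 4.21, and Pttg1 is the only gene left of 0.

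The spindle checkpoint and anaphase genes rose with 1 exception, Pttg1. The median of its 9 genes was 3.93 in Rb/p53/p130 tumours and 3.88 in Rb/p53 tumours, and 8 rose in each. Ttk, the kinase that starts checkpoint signalling at the kinetochore, read 9.63, 9.72 and 9.45 in Rb/p53/p130 tumours, 8.71, 9.58 and 10.33 in Rb/p53 tumours, and 4.29 and 4.45 in lungs. It was at least 23.5-fold higher in Rb/p53/p130 tumours and at least 21.4-fold higher in Rb/p53 tumours. The kinase Bub1 changed by 4.21 ± 0.53 in Rb/p53/p130 and 3.88 ± 0.45 in Rb/p53 tumours. Its relative Bub1b, which binds and blocks Cdc20, changed by 3.93 ± 0.35 in Rb/p53/p130 and 3.94 ± 0.30 in Rb/p53 tumours. Mad2l1, the other Cdc20 inhibitor, read 11.65, 11.82 and 11.14 in Rb/p53/p130 tumours, 10.49, 11.54 and 13.00 in Rb/p53 tumours, and 8.02 and 8.17 in lungs. Its spread over the Rb/p53 tumours was wide, with tumour 7 highest. Bub3, the adaptor of Bub1 and Bub1b, read 12.75, 12.76 and 12.44 in Rb/p53/p130 tumours, 12.33, 12.77 and 13.11 in Rb/p53 tumours, and 11.86 and 11.53 in lungs. It rose least of the members that rose, 1.94-fold in Rb/p53/p130 tumours and 2.05-fold in Rb/p53 tumours (limma adjusted p = 0.00404 and 4.56e-04). Its promoter, printed above, holds the same letters as that of Cdc20.

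On the anaphase side, Cdc20, the activator of the APC/C, read 12.85, 12.74 and 12.87 in Rb/p53/p130 tumours, 12.23, 12.51 and 12.94 in Rb/p53 tumours, and 8.77 and 8.26 in lungs. It was 19.8-fold higher in Rb/p53/p130 and 16.7-fold higher in Rb/p53 tumours. Ube2c, the ubiquitin-conjugating enzyme that works with the APC/C, read 12.60, 12.85 and 12.47 in Rb/p53/p130 tumours, 11.93, 12.57 and 13.13 in Rb/p53 tumours, and 6.98 and 7.38 in lungs. Its rise, 44.1-fold in Rb/p53/p130 tumours, was the largest of any member there. Espl1, which encodes separase, read 9.16, 8.91 and 8.81 in Rb/p53/p130 tumours, 8.38, 9.13 and 9.84 in Rb/p53 tumours, and 6.33 and 6.54 in lungs. It changed by 2.52 ± 0.36 in Rb/p53/p130 and 2.69 ± 0.30 in Rb/p53 tumours (limma adjusted p = 1.08e-04 and 8.84e-06). With the Gapdh covariate the calls of Bub3, Mad2l1 and Espl1 were lost in both genotypes, with limma adjusted p between 0.0745 and 0.167 in Rb/p53 tumours.

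Pttg1, whose product securin holds separase inactive until anaphase, did not follow the others. Its brightest probe set read 11.26, 11.36 and 12.35 in Rb/p53/p130 tumours, 12.27, 12.63 and 13.16 in Rb/p53 tumours, and 13.50 and 12.56 in lungs. The Rb/p53 tumours overlapped the lungs, and all 3 Rb/p53/p130 tumours lay below both lungs, as in 33.2% of all genes. Against lung, Rb/p53/p130 tumours fell by 1.37 ± 0.35 (SE, limma adjusted p = 0.0101), and Rb/p53 tumours differed by -0.32 ± 0.30 (limma adjusted p = 0.462). The fall depended on 1 lung: without normal lung 1 it was -0.90 ± 0.41 (limma adjusted p = 0.18). The call was also lost with the Gapdh covariate (-1.06 ± 0.79, limma adjusted p = 0.551) and with probe sets of suffix _s, _x or _a, which can match several transcripts, left out (-1.20 ± 0.46, limma adjusted p = 0.0752). The brightest probe set carries such a suffix. The other 2 probe sets of Pttg1 were called in no comparison. In Rb/p53 tumours against lung the dimmer of these changed by -0.37 ± 0.39 and the brighter by 0.59 ± 0.36 (limma adjusted p = 0.53 and 0.243). The dimmest read 6.64, 6.89 and 7.61 in Rb/p53/p130 tumours, and 8.75 and 7.76 in lungs. The third read 9.20, 9.28 and 10.25 in Rb/p53/p130 tumours, and 10.53 and 10.00 in lungs, so that here tumour 13 lay between the lungs. In all 3 probe sets tumour 13 was the highest of its genotype.

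**Figure D3:**
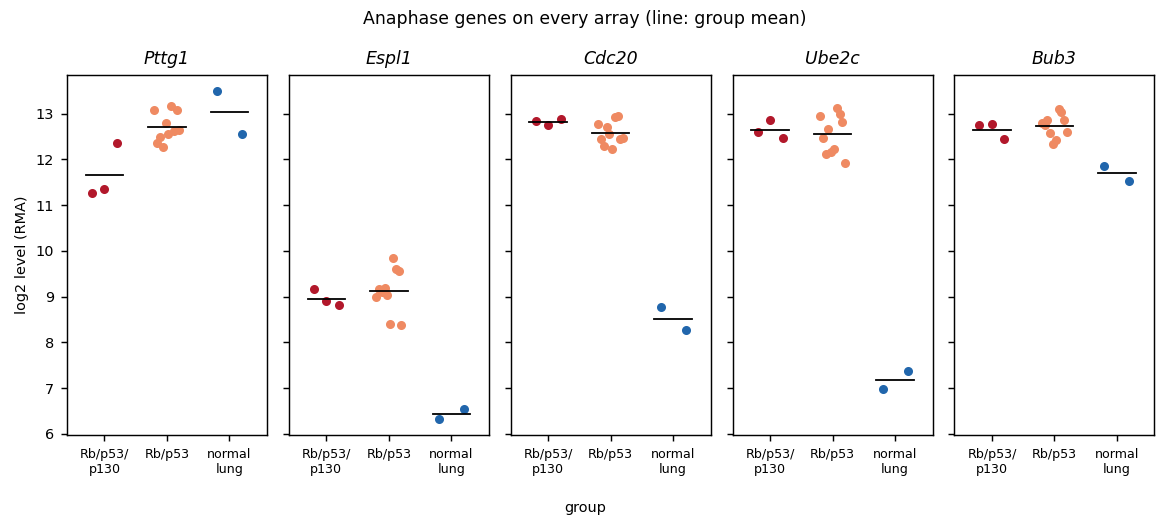
Log2 RMA level (vertical axis) of Pttg1, Espl1, Cdc20, Ube2c and Bub3 on every array, by group, each point 1 array and each line a group mean. Cdc20 and Ube2c stand far above lung in all 13 tumours, while the Pttg1 points of the Rb/p53/p130 tumours, 11.26 to 12.35, lie below both lung points.

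The 3 chromosomal passengers, which correct wrong attachments and guide cytokinesis, all rose in both genotypes, with medians of 4.75 in Rb/p53/p130 tumours and 4.61 in Rb/p53 tumours. Cdca8 (borealin) read 12.49, 12.02 and 11.88 in Rb/p53/p130 tumours, 11.02, 11.94 and 12.70 in Rb/p53 tumours, and 6.72 and 6.86 in lungs, with no overlap between tumours and lungs. Its rise was 40.5-fold in Rb/p53/p130 and 35.4-fold in Rb/p53 tumours. Birc5 (survivin) was 26.9-fold higher in Rb/p53/p130 and 24.5-fold higher in Rb/p53 tumours. Incenp, the scaffold of the complex, rose less, by 2.25 ± 0.45 in Rb/p53/p130 and 2.15 ± 0.39 in Rb/p53 tumours. It read 11.38, 11.28 and 11.15 in Rb/p53/p130 tumours, 9.94, 11.39 and 11.81 in Rb/p53 tumours, and 9.45 and 8.58 in lungs. Its lowest tumour, Rb/p53 tumour 6, lay close above the higher lung. The call of Incenp in Rb/p53/p130 tumours was lost with the Gapdh covariate (limma adjusted p = 0.0583).

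All 10 kinetochore and centromere genes rose in both genotypes, with median log2 differences of 4.28 in Rb/p53/p130 tumours and 4.30 in Rb/p53 tumours. The Ndc80 complex, which grips microtubules, was higher in each of its 4 subunits. Spc25 read 11.53, 11.69 and 10.98 in Rb/p53/p130 tumours, 10.48, 11.31 and 11.92 in Rb/p53 tumours, and 5.82 and 6.27 in lungs. It was 41.0-fold higher in Rb/p53/p130 and 37.8-fold higher in Rb/p53 tumours. Ndc80 itself changed by 4.50 ± 0.48 in Rb/p53/p130 and 4.40 ± 0.40 in Rb/p53 tumours, and Spc24 by 3.58 ± 0.32 in Rb/p53/p130 and 3.47 ± 0.27 in Rb/p53 tumours. Nuf2, the partner of Ndc80, read 9.11, 9.49 and 8.94 in Rb/p53/p130 tumours, 8.12, 9.92 and 10.48 in Rb/p53 tumours, and 5.38 and 4.97 in lungs. It was the member with the lowest genotype difference after Pttg1, -0.56 ± 0.39 (limma adjusted p = 0.687), and the genotypes overlapped.

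Among the centromere proteins, Cenpa, the histone H3 variant that marks the centromere, read 11.39, 11.49 and 11.18 in Rb/p53/p130 tumours, 10.53, 11.38 and 12.24 in Rb/p53 tumours, and 6.91 and 7.36 in lungs. Cenpf, a large protein of the outer kinetochore, read 11.11, 11.23 and 11.18 in Rb/p53/p130 tumours, 9.93, 11.17 and 11.84 in Rb/p53 tumours, and 6.01 and 5.96 in lungs. In both genes the Rb/p53/p130 tumours lay inside the Rb/p53 range and far above lung. Cenpe, a kinesin that carries chromosomes to the spindle equator, changed by 4.34 ± 0.41 in Rb/p53/p130 tumours and 4.21 ± 0.35 in Rb/p53 tumours. Of the inner subunits that sit on Cenpa chromatin, Cenpk was 27.7-fold higher in Rb/p53/p130 and 29.8-fold higher in Rb/p53 tumours, and Cenph 11.9-fold in Rb/p53/p130 and 10.1-fold in Rb/p53 tumours. Cenpi was at least 13.4-fold higher in Rb/p53/p130 and at least 11.0-fold higher in Rb/p53 tumours. Cenpk rose in this way with no CHR letters in its 3 promoter windows. With the Gapdh covariate Cenpa, Cenpe and Ndc80 lost their calls in both genotypes, and Cenpf and Cenph in Rb/p53/p130 tumours (limma adjusted p between 0.05001 and 0.0860).

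Condensin, the ring complex that compacts mitotic chromosomes, rose in all 5 subunits listed, as did Top2a and Mki67. The median of the 7 genes was 3.99 in Rb/p53/p130 tumours and 3.90 in Rb/p53 tumours, 3.79 with Ncapg at its bound. Smc2 and Smc4 form the core of both condensins. Smc4 read 12.66, 12.68 and 12.40 in Rb/p53/p130 tumours, 11.91, 12.44 and 12.71 in Rb/p53 tumours, and 10.24 and 10.37 in lungs. Its rise, 4.85-fold in Rb/p53/p130 and 4.16-fold in Rb/p53 tumours, was the smallest of the 7, and that of Smc2 was 11.4-fold in Rb/p53/p130 and 9.57-fold in Rb/p53 tumours. The other 3 belong to condensin I alone. Ncapg read 9.28, 9.21 and 8.94 in Rb/p53/p130 tumours, 8.00, 9.00 and 9.91 in Rb/p53 tumours, and 4.07 and 3.82 in lungs. It was at least 17.1-fold higher in Rb/p53/p130 and at least 13.9-fold higher in Rb/p53 tumours. Ncapd2 changed by 3.99 ± 0.47 in Rb/p53/p130 and 3.90 ± 0.40 in Rb/p53 tumours, and Ncaph by 3.23 ± 0.40 in Rb/p53/p130 and 3.22 ± 0.34 in Rb/p53 tumours. The calls of Smc4 and Ncapd2 were lost with the Gapdh covariate (limma adjusted p between 0.067 and 0.0960).

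Top2a, the enzyme that untangles sister DNA, read 12.67, 12.76 and 12.50 in Rb/p53/p130 tumours, 12.03, 12.57 and 13.04 in Rb/p53 tumours, and 7.72 and 7.88 in lungs. It was 28.7-fold higher in Rb/p53/p130 and 27.4-fold higher in Rb/p53 tumours, and its promoter window holds the most CHR and CCAAT letters of those printed. A dim Top2a probe set, at 4.94 in Rb/p53/p130 tumours and 5.40 in lung, went the other way there (-0.45 ± 0.13, limma adjusted p = 0.0204). Mki67, the proliferation antigen that coats mitotic chromosomes, read 12.75, 13.00 and 12.78 in Rb/p53/p130 tumours, 12.11, 12.71 and 13.40 in Rb/p53 tumours, and 7.71 and 8.12 in lungs. It was 30.4-fold higher in Rb/p53/p130 and 26.1-fold higher in Rb/p53 tumours, with no overlap.

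The 4 spindle genes rose at much the same size as each other, between 4.36 and 4.96 on the log2 scale in Rb/p53/p130 tumours and between 4.37 and 4.87 in Rb/p53 tumours. Nusap1, which bundles spindle microtubules, read 11.37, 11.40 and 11.11 in Rb/p53/p130 tumours, 10.48, 11.42 and 11.97 in Rb/p53 tumours, and 6.30 and 6.48 in lungs. Aspm, a spindle pole protein of dividing progenitors, read 10.65, 10.77 and 10.67 in Rb/p53/p130 tumours, 9.44, 10.71 and 11.23 in Rb/p53 tumours, and 5.88 and 5.59 in lungs. Hmmr, a spindle-pole adaptor, rose 25.2-fold in Rb/p53/p130 and 25.9-fold in Rb/p53 tumours. Tpx2, the activator of Aurka on the spindle, rose 20.5-fold in Rb/p53/p130 and 20.7-fold in Rb/p53 tumours. The lowest Rb/p53 tumour of each of these 4 genes still lay more than 3 log2 units above the higher lung.

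The cytokinesis genes had the highest subgroup median in Rb/p53/p130 tumours, 4.85, against 4.59 in Rb/p53 tumours, and 4 of 4 rose in each. Racgap1, of the centralspindlin complex, read 10.46, 10.53 and 10.54 in Rb/p53/p130 tumours, 9.88, 10.40 and 11.32 in Rb/p53 tumours, and 5.47 and 5.26 in lungs. Prc1, which bundles the central spindle, changed by 4.93 ± 0.21 in Rb/p53/p130 and 4.81 ± 0.17 in Rb/p53 tumours (limma adjusted p = 1.50e-09 and 1.87e-10). Ect2, the activator of RhoA at the cleavage furrow, read 10.79, 10.89 and 10.97 in Rb/p53/p130 tumours, 9.92, 10.44 and 11.19 in Rb/p53 tumours, and 6.48 and 5.75 in lungs. It had the highest genotype difference of any member, 0.40 ± 0.25 (limma adjusted p = 0.643), and the genotypes overlapped. Anln, a scaffold of the contractile ring, rose least of the 4, by 3.50 ± 0.24 in Rb/p53/p130 and 3.18 ± 0.20 in Rb/p53 tumours.

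The transcription factors Foxm1 and Mybl2, which switch on mitotic genes, had the smallest subgroup change, with medians of 1.57 in Rb/p53/p130 tumours and 1.62 in Rb/p53 tumours. Foxm1 read 8.19, 8.07 and 8.53 in Rb/p53/p130 tumours, 7.76, 8.23 and 9.26 in Rb/p53 tumours, and 6.92 and 7.05 in lungs. Its change was 1.28 ± 0.33 in Rb/p53/p130 and 1.28 ± 0.28 in Rb/p53 tumours (limma adjusted p = 0.00994 and 0.00247). Mybl2 read 8.25, 8.27 and 7.60 in Rb/p53/p130 tumours, 7.17, 8.19 and 9.18 in Rb/p53 tumours, and 6.00 and 6.35 in lungs. Its change was 1.86 ± 0.50 in Rb/p53/p130 and 1.97 ± 0.42 in Rb/p53 tumours. No tumour fell to a lung value in either gene. Both calls were lost in both genotypes with the Gapdh covariate (limma adjusted p between 0.364 and 0.476), and in Rb/p53/p130 tumours without normal lung 1 (limma adjusted p = 0.0781 and 0.105). The Mybl2 call in Rb/p53/p130 tumours was also lost without Rb/p53 tumour 2 and Rb/p53/p130 tumour 12 (limma adjusted p = 0.053). All of these results rest on the brightest probe set. Of the other 64 probe sets of the members, 48 were called higher in Rb/p53 tumours and 1 lower (that of Nek2 above). Of the 33 members with over 1 probe set, every probe set was called higher in 17 in Rb/p53/p130 tumours and in 22 in Rb/p53 tumours.

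Between tumour genotypes no member was called. In limma 0 of 49 rose and 0 fell, where 0.022% of all genes rose and 0.0495% fell, and at an unadjusted p under 0.05 there were 0 higher and 1 lower (Pttg1), where 4.65% and 2.61% of all genes were. In 0 members did all 3 Rb/p53/p130 tumours lie above or all below the 10 Rb/p53 tumours, as in 1.1% and 0.868% of all genes. With array weights 1 member was called, again Pttg1 (-1.13 ± 0.21, limma adjusted p = 0.00743). The median difference was 0.10, against 0.01 over all genes. Above 0 lay 37 of 49 members, which move together between tumours, and 9410 of all 18193 genes. That direction rested on which Rb/p53 tumours were included. Without tumours 3, 5, 6 and 10, described next, the median was -0.18, against 0.016 over all genes. Then 0 members were called, where 115 of 18193 genes were higher and 16 lower. The 95% intervals, each from the limma fit, held 0 for 48 members and lay within 1 log2 unit either way for 45. The intervals reached 0.317 to 0.825 to each side, with a median of 0.58. By function the medians were 0.22 for cytokinesis, 0.22 for condensin and chromosome structure, 0.14 for passengers, 0.11 for the kinetochore, 0.03 for kinases and cyclins, 0.01 for the spindle, -0.01 for the checkpoint and anaphase genes, and -0.05 for the transcription factors. For Pttg1 the difference was -1.05 ± 0.25 (limma adjusted p = 0.118, unadjusted p = 0.000994), with an interval of -1.59 to -0.50. Rb/p53/p130 tumour 13, at 12.35, lay above the lowest Rb/p53 tumour at 12.27, so the groups overlapped. The other Pttg1 probe sets differed by -0.84 ± 0.33 and -1.28 ± 0.30 (limma adjusted p = 0.396 and 0.107).

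The Rb/p53 tumours differed among themselves. The median SD over members was 0.16 in Rb/p53/p130 tumours, 0.49 in Rb/p53 tumours and 0.15 in normal lung, against 0.13 in Rb/p53/p130 tumours, 0.28 in Rb/p53 tumours and 0.15 in normal lung over all genes. The SD was lower in Rb/p53/p130 than in Rb/p53 tumours for 48 members (98%), as for 88% of all genes. The mean log2 level over the 49 genes was 10.66, 10.73 and 10.49 in Rb/p53/p130 tumours 11, 12 and 13. In Rb/p53 tumours 1 to 10 it was 10.70, 10.65, 10.39, 10.67, 10.12, 10.03, 11.28, 10.89, 10.84 and 10.05, and in the lungs 6.69 and 6.72. Tumour 7 stood highest, above the Rb/p53 median in 49 of 49 genes and the highest of the 10 in 37. Tumours 3, 5, 6 and 10 stood lowest, holding the lowest value of 47 genes.

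Markers of alveolar, endothelial, ciliated and club cells divided the Rb/p53 tumours in the same way. Tumours 3, 5, 6 and 10 had a mean level of 12.1 to 12.5 for the 5 alveolar type 2 markers, 11.1 to 11.6 for the 4 alveolar type 1 markers, 8.06 to 8.75 for the 5 endothelial markers and 13.4 to 14.2 for the 3 club cell markers. The other 6 Rb/p53 tumours had 9.09 to 10.9 for alveolar type 2 and 8.42 to 10.2 for alveolar type 1 markers. They had 6.24 to 7.21 for endothelial and 11.3 to 12.4 for club cell markers. The split was narrow for ciliated markers, at 5.64 to 5.93 in the first 4 and 5.34 to 5.59 in the other 6. The mean of the mitotic genes was 10.03 to 10.39 in the first 4 and 10.65 to 11.28 in the other 6. Neuroendocrine markers did not divide the tumours, at 10.68 to 11.65 in those 4 and 10.81 to 11.65 in the other 6. The ranges of fibroblast, macrophage, T cell, B cell, erythroid and hepatocyte markers also overlapped between those 4 and the other 6. The Gapdh difference was -0.06 to 0.36 in those 4 and -0.07 to 0.24 in the other 6. With the 4 tumours left out the members rose by a median of 4.55 in the remaining Rb/p53 tumours, and 48 were called. Over all 18193 genes 3555 then rose and 3935 fell. The Rb/p53/p130 tumours had 10.6 to 11.2 for alveolar type 2 and 10.4 to 10.6 for alveolar type 1 markers. They had 7.19 to 7.41 for endothelial, 5.32 to 5.37 for ciliated and 13.1 to 14.3 for club cell markers. The part of resident cells in the spread between tumours, and in the genotype comparison, was not tested. Hepatocyte markers were high in Rb/p53/p130 tumour 12 and Rb/p53 tumour 2, at 10.8 and 8.46. Without these tumours 48 members were called in each genotype. In Rb/p53/p130 tumours the call of Mybl2 was lost (1.75 ± 0.58, limma adjusted p = 0.053). Over all 18193 genes 3194 then rose and 3573 fell in Rb/p53 tumours, and 2233 rose and 2318 fell in Rb/p53/p130 tumours.

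**Figure D4:**
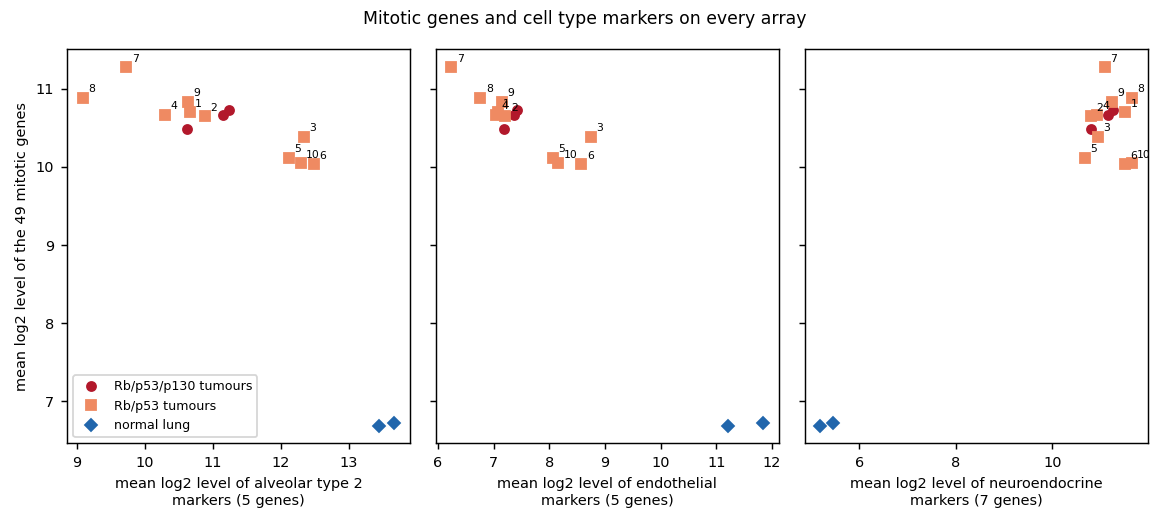
Mean log2 level of the 49 mitotic genes (vertical axis) against the mean log2 level of alveolar type 2, endothelial and neuroendocrine markers (horizontal axes) on every array, each point 1 array and Rb/p53 tumours numbered. Rb/p53 tumours 3, 5, 6 and 10 sit towards the lungs for both lung cell types, and all 13 tumours sit together for neuroendocrine markers.

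Because the Rb/p53 tumours fall into these sets, likeness between genes is described within the 6 tumours low in the markers that divided them. It is a description over few arrays that share normalisation. Each member's level was set against the mean of the other 48. The median Pearson r was 0.763, and 42 of 49 members (85.7%) were above 0.5, against 20.2% of genes that are no member. Members closest to the rest were Ncapd2 (r = 0.989), Ttk (r = 0.974) and Racgap1 (r = 0.965). Those farthest were Cdca8 (r = 0.173), Anln (r = 0.261), Bub1b (r = 0.292) and Cdc25b (r = 0.327). In these 6 tumours the mean of the members and that of the 5 endothelial markers had r = -0.938. Without the 2 tumours farthest from the median of those markers r was 0.111. The tumours left spanned only 7.04 to 7.21 for these markers, too narrow a range for that r to decide on the relation. For the 5 T cell markers r was -0.941 with all 6 and -0.953 without 2, and for neuroendocrine markers 0.14. In the other lists, with all 6 tumours, r was -0.919 for club, -0.844 for B cell and -0.719 for alveolar type 1 markers. For ciliated, alveolar type 2 and hepatocyte markers it was -0.717, -0.585 and -0.474. Fibroblast, erythroid and macrophage markers had -0.275, -0.237 and 0.016. A further r left out the 2 tumours farthest from the median of each list. It was -0.032 for club, -0.679 for B cell and 0.136 for alveolar type 1 markers. For ciliated, alveolar type 2 and hepatocyte markers it was -0.635, -0.01 and -0.566. Fibroblast, erythroid, macrophage and neuroendocrine markers then had 0.064, -0.865, 0.491 and -0.196. With so few tumours left, these values do not decide on any relation. All 12 marker lists are thus given.

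Genes outside the list were also set against the mean of the members over the 10 Rb/p53 tumours. Partner genes, described below, reached r = 0.978 and were left out of the ranking. Among the rest the closest were Shcbp1, Cul5, Rb1, Blm, Mreg, Macroh2a3, Chtf18 and Uhrf1, with r from 0.960 to 0.977. Within the 6 tumours their r was 0.815 to 0.964. Uhrf1, which maintains DNA methylation at replication, read 11.25, 11.28 and 10.97 in Rb/p53/p130 tumours, 9.58, 10.70 and 11.53 in Rb/p53 tumours, and 6.98 and 6.79 in lungs. Shcbp1, a protein of the central spindle, read 10.11, 10.27 and 9.88 in Rb/p53/p130 tumours, 8.96, 10.10 and 11.01 in Rb/p53 tumours, and 5.39 and 5.51 in lungs. In both, tumour 7 was the highest of the Rb/p53 tumours. The Rb1 probe set followed the members although Rb is deleted in these tumours, and, as said above, it need not lie in the recombined exons.

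Partner genes of the same machines, outside the 50, were read next. Of 112 listed, 110 were measured, and 78 rose and 2 fell in Rb/p53 tumours, with a median log2 difference of 1.38, against 4.21 in the members. In Rb/p53/p130 tumours 73 rose and 2 fell, with a median of 1.53. The backgrounds are the 18.3% and 15.3% of all genes that rose, given above. Other kinetochore genes rose in 25 of 28 (median 2.26 in Rb/p53 tumours), spindle and centrosome genes in 18 of 20 (1.88), and the condensin subunits outside the list in 3 of 3 (2.22). Ncapg2, of condensin II, read 11.01, 10.99 and 10.79 in Rb/p53/p130 tumours, 9.46, 10.57 and 11.19 in Rb/p53 tumours, and 6.07 and 6.56 in lungs, while Ncaph2 of the same complex changed by only 0.70 ± 0.15 in Rb/p53 tumours (limma adjusted p = 0.00207). The kinesin Kif11, which pushes spindle poles apart, read 10.16, 10.31 and 10.00 in Rb/p53/p130 tumours, 8.45, 9.82 and 10.62 in Rb/p53 tumours, and 4.69 and 5.28 in lungs.

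Smaller shares rose among checkpoint and APC/C, cohesin, cytokinesis and entry partners. Of 18 checkpoint and APC/C genes 8 rose in Rb/p53 tumours (median 0.38). Fbxo5, an APC/C inhibitor, changed by 3.40 there, whereas the APC/C subunits Anapc1 and Cdc27 had 0.15 ± 0.43 and 0.35 ± 0.18 (limma adjusted p = 0.829 and 0.145). The subunits Anapc2, Anapc4, Anapc10, Anapc13, Cdc23 and Cdc26 were not called there either. Anapc7, Cdc16, Anapc5 and Anapc11 were called higher, by 0.72, 0.71, 0.60 and 0.59. Of 15 cohesin genes 9 rose in Rb/p53 tumours (median 0.72). Esco2, an acetyltransferase of cohesin in S phase, read 9.23, 9.47 and 9.15 in Rb/p53/p130 tumours, 7.20, 8.81 and 9.53 in Rb/p53 tumours, and 4.09 and 3.66 in lungs, below 5.05. The ring subunits Smc1a and Rad21 rose by 1.02 ± 0.14 and 0.72 ± 0.21, and Stag2 had 0.14 ± 0.16 (limma adjusted p = 0.567). Of the 110 partners 1 was called between the tumour genotypes, the cohesin loader Mau2, where 0.0495% of all genes were lower. It read 8.48, 8.37 and 8.41 in Rb/p53/p130 tumours, 9.34, 9.82 and 10.13 in Rb/p53 tumours, and 8.49 and 8.27 in lungs. The 3 Rb/p53/p130 tumours lay below all 10 Rb/p53 tumours, by -1.35 ± 0.14 on average (limma adjusted p = 6.74e-04), and overlapped the lungs. This rests on 1 of its 4 probe sets: the other 3 differed by -0.53 to 0.09 and were not called (limma adjusted p between 0.0997 and 0.876), and with the 4 averaged the difference was -0.43 (limma adjusted p = 0.208). Of 10 other cytokinesis genes 5 rose (median 0.62). Cep55, of abscission, read 10.82, 10.79 and 10.40 in Rb/p53/p130 tumours, 9.07, 10.23 and 10.97 in Rb/p53 tumours, and 5.77 and 5.30 in lungs, whereas Rhoa had -0.21 ± 0.10 and Septin7 -0.13 ± 0.13 (limma adjusted p = 0.153 and 0.522). Of 16 mitotic entry regulators 10 rose (median 2.09), and the kinases Nek7 and Nek9 fell. Pbk, a mitotic kinase, was the partner that rose most, by 5.50. Nek7 read 10.60, 10.65 and 10.77 in Rb/p53/p130 tumours, 10.30, 10.61 and 11.26 in Rb/p53 tumours, and 11.87 and 11.94 in lungs, below lung in all 13 tumours. With the Gapdh covariate the calls of Nek7, Esco2, Mau2, Trip13 and Kif20a in Rb/p53 tumours were lost (limma adjusted p between 0.0533 and 0.616). CHR letters stood in promoter windows of 38 of 93 partners (40.9%), against 68.3% of the members.

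**Figure D5:**
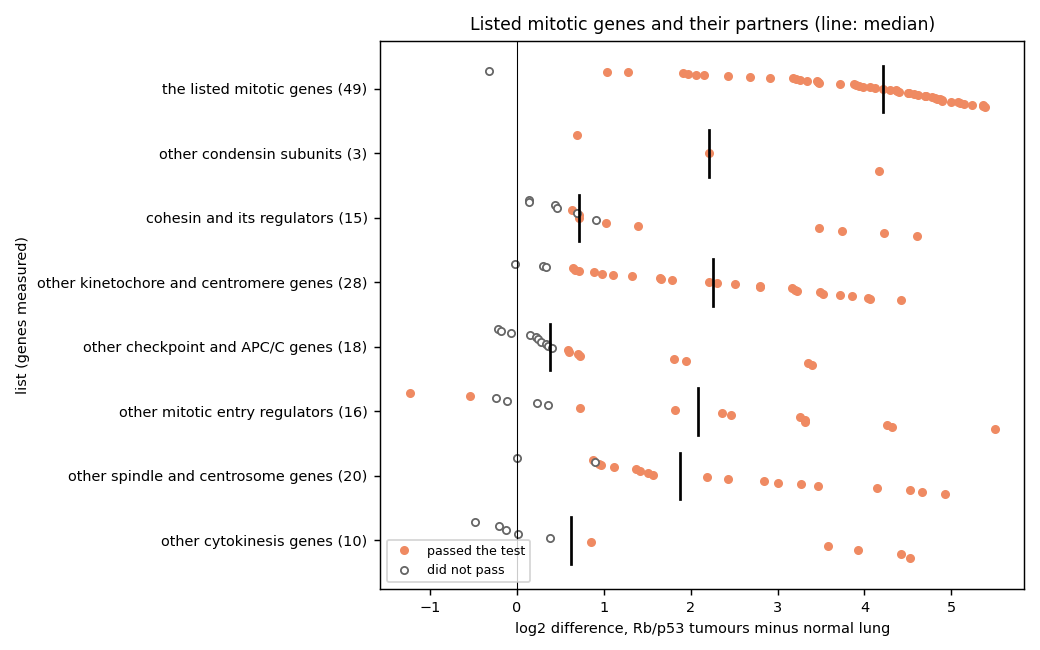
Log2 difference of Rb/p53 tumours minus normal lung (horizontal axis) for each of the 49 mitotic genes and 110 partner genes, by list, filled where the limma test passed and open where it did not, with a line at each median. The members centre at 4.21, the cohesin, checkpoint and other cytokinesis partners at 0.72, 0.38 and 0.62.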

How the data were processed

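RNA of 3 Rb/p53/p130 tumours, 10 Rb/p53 tumours and 2 normal lungs was extracted with Trizol and amplified in a pair of rounds with a RiboAmp kit, per the labels' protocols. The deposited table holds log2 values made with RMA, per the submitters' processing notes, with no version given. RMA equalises the arrays, which hides a shift common to most genes, and this amplification favours 3' ends. Scan dates and batches are not given in the sources used here.

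Of 45101 probe sets, 64 controls were removed and 45037 were fitted with limma 3.58.1 (lmFit and eBayes, R 4.3.3), all 3 groups together. Benjamini-Hochberg adjustment ran over all of them, and calls were made at 0.05. Each gene was taken from its brightest probe set over 15 arrays (34945 probe sets had 1 symbol, for 18193 genes). Errors of levels are SD and of changes SE. A fold is a lower bound where the lung mean did not exceed 5.05. The fit was tested on simulated data. The members and lists were chosen with earlier results of these data known. Named partners are the 2 called genes that rose most and the 1 that fell most in each list. Other named genes are the 8 closest to the mean of the members outside members and partners. Ncaph2, Smc1a, Rad21, Stag2, Mau2, the APC/C subunits, Rhoa, Septin7 and Nek9 were named after their values were seen. Ccnb1 and Hjurp were not analysed here. Array numbers do not pair samples: deviations of same-numbered arrays correlated at -0.004 and -0.055. Precision is limited by the number of arrays. Promoters were searched in Python 3.11.15 with pandas 2.3.3, and figures drawn with matplotlib 3.10.9.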

Additional observations from a re-analysis of the deposited data

How the results depend on the processing

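The alternatives were each array left out, a new quantile normalisation, median centring, bright probe sets only, a fit of the compared groups alone, array weights, a trended robust prior, the Gapdh difference as covariate, the mean of a gene's probe sets, no probe sets of suffix _s, _x or _a, the array number as a replicate block, and a required change of 1. Leaving out Rb/p53 tumours 3, 5, 6 and 10, or Rb/p53 tumour 2 with Rb/p53/p130 tumour 12, was chosen after seeing the data. No result changed direction among members that were called.

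In Rb/p53 tumours against normal lung 48 members were called, also 48 with each array left out and 48 with the replicate block. The Gapdh covariate left 37, a required change of 1 left 44, and the suffix filter 38 of the 39 it kept. The median change ran from 3.34 with probe sets averaged to 4.55 without the 4 tumours. Over all genes the Gapdh covariate left 610 called higher and 496 lower, against 3328 and 3730, and the block 1685 and 2206. The block fit held only Rb/p53 tumours 1 and 2 and the 2 lungs, the array numbers found in both groups. Its counts therefore also reflect the tumours left out. In Rb/p53/p130 tumours against normal lung 49 members were called, 46 to 49 with 1 array left out, 34 with the covariate, 43 with a required change of 1 and 37 of 39 with the suffix filter. Spc25, read then from another probe set, changed by 0.74 (limma adjusted p = 0.285). Between genotypes 0 members were called under all alternatives but array weights, where 1 was (Pttg1), with 414 genes called higher and 248 lower against 4 and 9. Precision is limited by the 3 Rb/p53/p130 tumours and 2 lungs.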
